A study of Mus musculus with 3 samples.

Results

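Transcripts of the enzymes that load, pass on and remove ubiquitin were examined in mouse eggs, as the genes of the deposited table whose symbols begin with Usp, Otud, Uba or Ube2. The symbol rule found 60 genes, with 105 of the table's 9126 transcript rows, among 6104 gene symbols in all. For each gene the row with the highest mean over the libraries, called its leading row here, was described. By symbol the genes were 3 activating enzymes (Uba1, Uba3 and Uba6), 14 of the conjugating enzyme series (Ube2), 33 genes of the Usp series, 4 genes of the Otud series and 6 other genes whose symbols begin with Uba. The rule works on letters, so Uba3 and Ube2f, which serve the ubiquitin relative NEDD8, and the inactive variant Ube2v1 are included, and the last 6 (Ubash3b, Ubap2, Ubac2, Ubap1l, Ubap2l and Ubap1) are neither activating enzymes nor deubiquitinases. The Usp series likewise holds Usp6nl, a regulator of Rab GTPases, Uspl1, a protease of the modifier SUMO, and Usp39, a splicing factor without protease activity.

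The 3 libraries came from oocytes of ICR mice that were taken from antral follicles before meiosis resumed and cultured for 16 to 18 h in M16 medium until metaphase II. By their titles they are young, aged and aged-sec, the last being aged oocytes matured in medium mixed 1 to 1 with the secretome of mesenchymal stem cells from human umbilical cord, that is, what those cells release into their medium. Each library pooled 20 oocytes from 4 mice, whose ages the labels do not state. Titles decided the groups, because the treatment field carries the same entry, the secretome, for every sample.

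With 1 library per group there is no replicate spread to test against, so p-values are left out and each difference is that of a pair of libraries. Values are TPM, the share of each transcript in its library, corrected for transcript length and scaled to the same total in every library. The amount of RNA per oocyte and the composition of that RNA cannot be told apart in TPM. The table holds only rows with a deposited aged over young ratio of at least 1.20, so every aged value below is, by that choice, higher than the young value. The aged library thus entered both the choice of rows and the aged-sec over aged ratio, and the part of that choice in the ratios was not tested. Read depth is unknown from TPM. The 60 genes were 50.0% of the 120 protein-coding RefSeq genes whose symbols match the rule, while 27.3% of all 21900 protein-coding symbols were in the table; this difference was not tested.

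Marker genes were looked up as a description. A marker is listed only if its aged over young ratio was at least 1.20. Which markers are listed or missing therefore cannot check the identity of the libraries or the presence of other cells. Of 18 oocyte markers 5 were in the table, led by Bmp15, an oocyte growth factor, at 585 TPM in young oocytes, 817 in aged oocytes and 799 with secretome. Zp2, of the egg coat, had 20.5, 39.3 and 20.5 TPM, Gdf9 had 4.36, 6.81 and 4.46 TPM, Ddx4 had 0.34, 0.69 and 0.17 TPM and Kit had 19.0, 23.2 and 26.9 TPM. Log2 aged-sec over aged was -0.92 in Zp2, -0.83 in Ddx4, -0.56 in Gdf9, -0.03 in Bmp15 and 0.21 in Kit. The median of these 5 was -0.56, beside -0.20 in the leading rows of all symbols. As deposited 4 of the 5 were lower in aged-sec than aged, as were 72.5% of all leading rows. The part of these markers in the results was not tested. Of 14 cumulus and granulosa cell markers only Fshr was listed, at 0.03, 0.55 and 0.22 TPM. None of 5 blood and immune markers was listed, and of 6 stromal markers Dcn stood at 2.22, 4.03 and 3.08 TPM and Col1a1 at 0.01, 0.04 and 0.01 TPM. Fshr and Dcn were both highest in the aged library, and the part of other cells in the results below was not tested. Markers outside the table were not analysed here.

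Ubiquitin is a small protein that is attached to other proteins to mark them for destruction or to change their activity. An activating enzyme binds it through a cysteine, hands it to the cysteine of a conjugating enzyme, and a ligase then directs it to the substrate; deubiquitinases cut it off again. The relatives SUMO and NEDD8 travel through parallel enzymes. In the egg the system is known for holding and then releasing metaphase II arrest, where destruction of cyclin B and securin starts anaphase, and for clearing maternal proteins after fertilization.

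The catalytic cysteine that unites these enzymes is visible in the coding sequence, and its surroundings show how the families differ. The windows below, from GENCODE M21 transcripts on GRCm38, are shown for conjugating enzymes that lead the results; capitals mark the first 3 codons of the signature and the codon of the active cysteine.
Ube2n: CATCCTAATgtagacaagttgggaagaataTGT
Ube2f: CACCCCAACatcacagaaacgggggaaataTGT
Ube2l3: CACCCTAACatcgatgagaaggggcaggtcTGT
Ube2w: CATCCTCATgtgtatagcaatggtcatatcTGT

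The first 3 windows encode histidine, proline and asparagine, then 7 residues, then cysteine. Ube2w has the codon of a histidine in place of the asparagine codon and keeps the spacing. Among the 14 Ube2 genes 8 had the first pattern, Ube2w had the second, and 5 (Ube2j1, Ube2k, Ube2q2, Ube2ql1 and Ube2v1) had neither with this exact spacing in their longest annotated coding sequence. Ube2v1 is known as a conjugating enzyme variant without an active cysteine. The cysteine is codon 87 of Ube2n (chr10:95541403-95541435, plus strand, exon 2), codon 116 of Ube2f (chr1:91276419-91276451, plus strand, exon 6), codon 86 of Ube2l3 (chr16:17160042-17160074, minus strand, exon 4) and codon 120 of Ube2w (chr1:16585369-16585401, minus strand, exon 4). These windows come from the longest annotated coding sequence of each gene, which need not be the transcript of the leading row.

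The Usp genes carry their cysteine in another box, shown for the most abundant members and for both with the highest age ratios among those at 10 TPM or more. Capitals mark the codons of asparagine, of glycine and the next 2 residues, and of the cysteine that ends the signature.
Usp15: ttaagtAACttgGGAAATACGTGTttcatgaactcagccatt
Usp7: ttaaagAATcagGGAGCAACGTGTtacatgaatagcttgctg
Usp28: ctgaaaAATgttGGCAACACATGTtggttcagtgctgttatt
Usp9x: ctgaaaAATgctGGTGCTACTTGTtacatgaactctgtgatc
Usp46: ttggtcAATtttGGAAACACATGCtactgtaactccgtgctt
Usp45: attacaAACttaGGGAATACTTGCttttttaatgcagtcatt

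After the glycine, Usp15, Usp28, Usp46 and Usp45 encode asparagine and threonine, and Usp7 and Usp9x encode alanine and threonine. In all, 27 of the 33 Usp genes had the box: 21 with asparagine and threonine, 5 with alanine and threonine (Usp7, Usp9x, Usp24, Usp34 and Usp48), and Usp13 with asparagine and serine. The 6 without a match to this exact box in their longest annotated coding sequence were Usp39, Usp47, Usp53, Usp54, Usp6nl and Uspl1. A missing match does not by itself show that a catalytic cysteine is absent. The cysteine is codon 298 of Usp15 (chr10:123146797-123146838, minus strand, exon 8), codon 264 of Usp7 (chr16:8707671-8707712, minus strand, exon 7), codon 171 of Usp28 (chr9:49003938-49003979, plus strand, exon 5), codon 1566 of Usp9x (chrX:13145198-13145239, plus strand, exon 31) and codon 200 of Usp45 (chr4:21796884-21796925, plus strand, exon 6). In Usp46 (chr5:74032485-74037041, minus strand) it is codon 44, and the window is joined from exons 2 and 3. Usp12, the close relative of Usp46, has 35 of these 42 bases in common with it.

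Levels of the 60 leading rows spanned more than 3 orders of magnitude, from means of 0.103 TPM for Usp6nl to 290 TPM for Usp15, with a median of 5.69 TPM. At least 1 library reached 10 TPM in 24 genes, and 9 genes stayed under 1 TPM in all libraries. Summed over all 105 rows, the genes held 1274 TPM in young oocytes, 2073 in aged oocytes and 1795 with secretome, which was 0.556%, 0.638% and 0.558% of the TPM listed in each library. As a share of the listed transcripts, then, the aged library stood above both others.

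**Figure D1:**
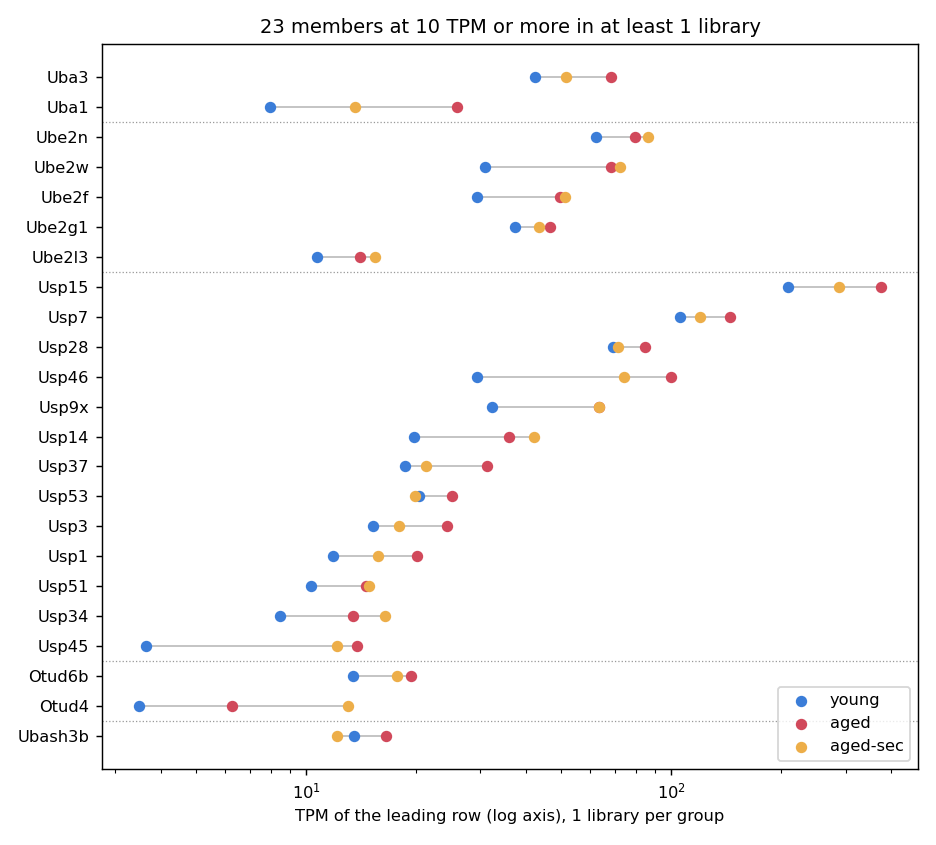
TPM of the leading row (log axis) for 23 of the 24 genes that reached 10 TPM in at least 1 library, grouped by role (activating, conjugating, Usp, Otud, other Uba), with 1 point per library. Of those drawn, the young point is leftmost in all but Usp53 and Ubash3b, where aged-sec is lower still, and the aged-sec point is rightmost in 8 genes.

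A size rule was applied because no test was possible: at least a 2-fold ratio after 0.5 TPM was added to both values, and 10 TPM or more in whichever library was higher. Between aged and young oocytes 23 of the 60 genes had enough TPM, and 4 of them (17.4%) met the rule. The table as a whole gave 18.2% of its rows and 15.9% of its leading rows, so the share among these genes lay near the background. The 4 were Usp46, Usp45, Uba1 and Ube2w. Usp45 and Uba1 were under 10 TPM in young (3.63 and 7.97 TPM), so they had enough TPM only through the aged library. When the listed rows of the libraries were scaled to equal medians none met the rule, and with median-of-ratios scaling Usp45 alone did. The nearest genes on either side of the limit were Ube2w, inside at a log2 ratio of 1.14, and Usp9x, outside at 0.96. As deposited all 60 genes were higher in aged than young, by selection, but 17 were with equal medians and 26 with median-of-ratios scaling. Median log2 aged over young was 0.56 in the 60 genes and 0.47 in the leading rows of all symbols.

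The question put by aged-sec against aged oocytes is whether maturation with the secretome alters these transcripts. Otud4 was the only gene of 24 with enough TPM to meet the rule, on the higher side, and no gene met it on the lower side. Otud4 reached 10 TPM only in aged-sec, so it had enough TPM only through the library where it was high. The background was 0.223% higher and 2.95% lower among all rows, and 0.168% and 2.18% among leading rows. By any amount, 43 of 60 genes (71.7%) were below aged as deposited, near the 72.5% of all leading rows, but 25 were below aged with equal medians and 28 with median-of-ratios scaling. The median log2 ratio was -0.24 as deposited, against -0.20 over all leading rows, and was 0.09 and 0.02 under these scalings, which add 0.36 and 0.29 to every log2 value of this pair before the 0.5 TPM.

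Between aged-sec and young oocytes 5 of 24 genes (20.8%) met the rule on the higher side: Otud4, Usp45, Usp46, Ube2w and Usp14. Of these, Otud4 and Usp45 were under 10 TPM in young and had enough TPM only through aged-sec. Of all rows 17.1% did so, and of leading rows 14.2%. None of the 60 met it on the lower side, where the background was 0.450% of rows and 0.311% of leading rows. By any amount 11 genes (18.3%) were below young, against 22.1% of leading rows. Under either scaling of the listed rows only Otud4 and Usp45 met the rule. These comparisons share libraries with each other, so their calls are not independent.

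**Figure D2:**
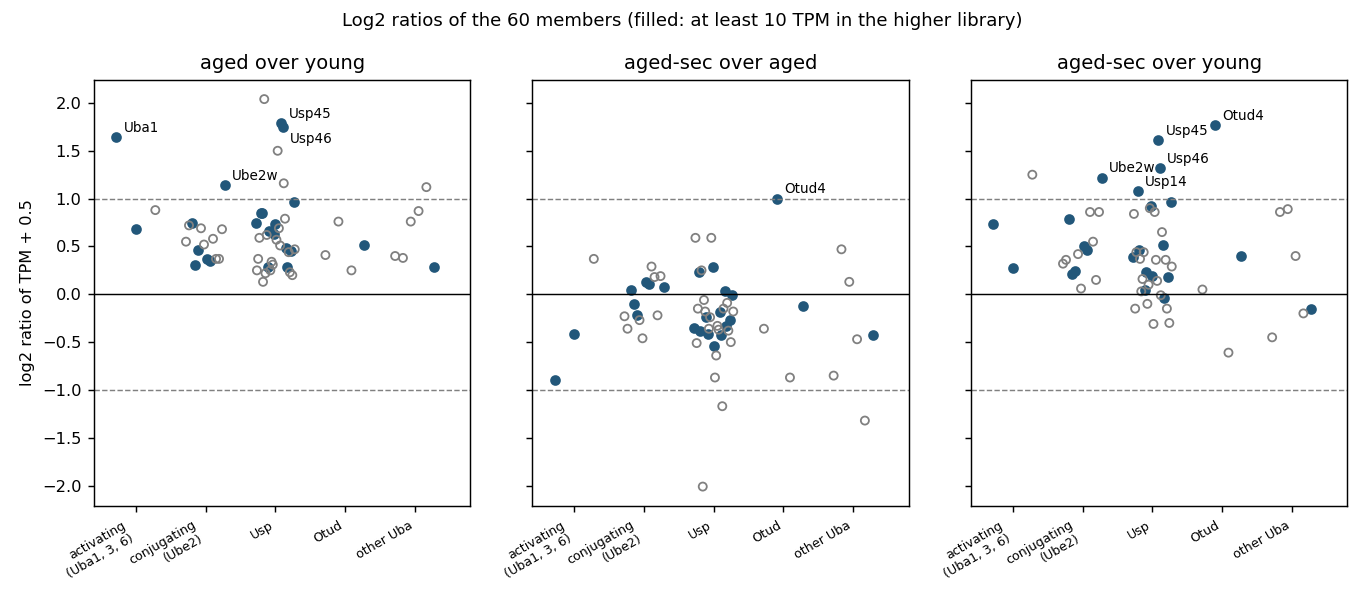
Log2 ratio of TPM + 0.5 for each of the 60 genes by role, in the 3 comparisons; filled points reached 10 TPM in the higher library, open points did not, dashed lines mark a 2-fold ratio, and genes that met the size rule are named. All aged over young values lie above 0 by selection of the table, though 43 would lie below with equal medians and 34 with median-of-ratios scaling; in aged-sec over aged 43 points lie below 0 as deposited, 25 with equal medians and 28 with median-of-ratios scaling.

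Ubiquitin-activating enzymes stand at the head of the cascade. Uba1, the main activating enzyme of ubiquitin, had 7.97 TPM in young oocytes, 25.8 in aged oocytes and 13.6 with secretome in its leading row (NM_001136085). The aged value was 3.24 times the young one (log2 1.64). As deposited the aged-sec value lay between them, at 0.525 times aged (log2 -0.90). That log2 ratio was the lowest of the genes at 10 TPM or more, and short of the size rule. Uba3, the catalytic subunit of the NEDD8-activating enzyme, had 42.4, 68.2 and 51.3 TPM in the same order, again with aged-sec in the middle. Its other listed row, NM_001111106, had 4.6, 15.1 and 15.9 TPM, with aged-sec highest, and with curated rows only Uba3 met the size rule against young in both aged and aged-sec oocytes. Uba6, a second activating enzyme of ubiquitin, was scarcer at 1.97, 4.04 and 5.38 TPM and was highest in aged-sec oocytes, though it did not reach 10 TPM. Summed, these 3 leading rows gave 52.4, 98.1 and 70.2 TPM.

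Conjugating enzymes receive ubiquitin or NEDD8 from the activating enzymes. Ube2n, which builds lysine-linked signalling chains together with a variant partner such as Ube2v1, had 62.3 TPM in young oocytes, 79.5 in aged oocytes and 86.0 with secretome, while Ube2v1 had 0.27, 0.73 and 0.90 TPM. Both were lowest in young and highest in aged-sec oocytes, and Ube2v1 stayed under 1 TPM throughout.

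Ube2w, which attaches ubiquitin to the amino terminus of proteins, was the only Ube2 gene to meet the size rule. Its leading row (NM_025773) had 30.8 TPM in young oocytes, 68.4 in aged oocytes and 72.3 with secretome. The aged libraries with and without secretome thus stood together, at 2.35 and 2.22 times the young level. Ube2f, the NEDD8-conjugating enzyme that serves a subset of cullin ligases, had a like order at 29.3, 49.5 and 51.1 TPM, without reaching a 2-fold ratio.

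No other Ube2 gene met the size rule. Ube2g1, known for extending ubiquitin chains on ligase substrates, had 37.3, 46.4 and 43.3 TPM, and Ube2l3, a partner of ligases that form their own thioester with ubiquitin, had 10.7, 14.0 and 15.4 TPM. Below 10 TPM in all libraries were Ube2q2 (5.23, 8.05 and 9.92 TPM), Ube2r2, a partner of cullin ligases (5.79, 7.63 and 6.46 TPM), Ube2d1, which works with many ligases (4.81, 8.27 and 6.33 TPM), and Ube2b, known for histone ubiquitination (4.95, 7.46 and 6.28 TPM). Ube2k, Ube2j1, an enzyme of the endoplasmic reticulum membrane, and Ube2ql1 were under 2 TPM in every library. The conjugating enzymes of the anaphase-promoting complex, Ube2c and Ube2s, were not analysed here.

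Aged-sec relative to aged was distributed differently by role as deposited. Of the 14 Ube2 genes 7 were below aged (50.0%), and of the 33 Usp genes 27 were (81.8%), beside 72.5% of all leading rows. With equal medians these counts were 2 of 14 and 15 of 33, and with median-of-ratios scaling 3 of 14 and 17 of 33. The share of all leading rows under the scalings was not computed, so these scaled counts have no background beside them. The share below aged was smaller among Ube2 genes in each of these settings; the difference between the families was not tested, and its size rests on genes of 1 library pair. Summed TPM of the Ube2 leading rows was 328 in young oocytes, 478 in aged oocytes and 459 with secretome, and of the Usp leading rows 588.5, 1009 and 823. The Usp sum in aged-sec oocytes was 0.815 times aged as deposited, 1.05 times with equal medians and 0.997 times with median-of-ratios scaling. For Ube2 the same quotients were 0.959, 1.23 and 1.17.

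**Figure D3:**
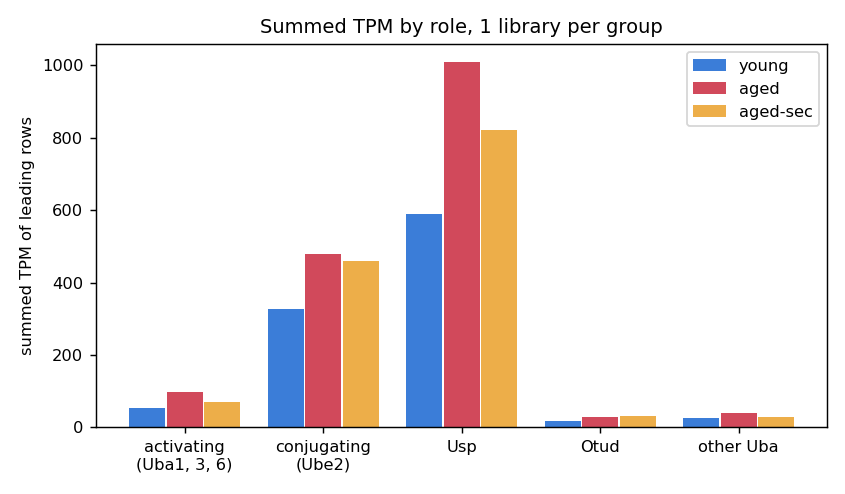
Summed TPM of the leading rows by role (bars from 0; 1 library per group, so no error bars). As deposited the aged bar is the tallest for activating, Ube2, Usp and other Uba genes, and the aged-sec bar for Otud; with equal medians the aged sums of all 5 roles fall below young, and the aged-sec sum passes aged for Ube2 under both scalings and for Usp with equal medians.

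Usp deubiquitinases made up most of the abundance. Usp15, which acts on signalling proteins of the TGF-beta pathway among others, was the highest of all 60 genes at 208 TPM in young oocytes, 376 in aged oocytes and 288 with secretome (log2 0.85 and -0.38 for aged over young and aged-sec over aged). Usp7, known for controlling the stability of p53 and its ligase, had 106, 144 and 119.6 TPM. Usp28, a stabiliser of Myc, had 69.1, 84.5 and 71.2 TPM. In all 3 the aged-sec value lay between young and aged as deposited, close to young for Usp28. The same order was found in 32 of the 60 genes and in 2932 of the 6104 leading rows of all symbols.

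Usp46, a relative of Usp12 that is activated by WD-repeat partners, had the highest age ratio of a leading row among the genes above 20 TPM. Its leading row (NM_177561) stood at 29.3 TPM in young oocytes, 99.9 in aged oocytes and 74.1 with secretome. That was 3.41 times young in the aged and 2.53 times in the aged-sec library. The ratio depends on the row: the other listed Usp46 row had 54.4, 75.7 and 68.9 TPM. It was the higher row in young, and its aged value was 1.39 times young, short of the size rule. The partner gene Wdr20 had 2.24, 5.47 and 6.0 TPM, and Usp12 had 0.33, 0.57 and 0.25 TPM. By selection of the table, both were higher in aged than young. From aged to aged-sec Wdr20 was slightly higher (log2 0.12), where the Usp46 leading row was lower (log2 -0.43). Usp45, a deubiquitinase linked to DNA repair, had the highest log2 age ratio of the genes that met the size rule, 1.79, from 3.63 TPM in young to 13.8 TPM in aged oocytes, with 12.1 TPM in aged-sec.

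Several Usp genes were about as high in aged-sec as in aged oocytes as deposited, or higher. Usp9x, an X-linked deubiquitinase needed in development, had 32.3 TPM in young and 63.5 and 63.2 TPM in aged and aged-sec oocytes. Usp14, which sits on the proteasome and trims chains from its substrates, had 19.7, 35.8 and 42.1 TPM, so that only aged-sec met the size rule over young (log2 1.08, against 0.85 for aged). Usp34, a giant deubiquitinase linked to Wnt signalling, had 8.47, 13.4 and 16.4 TPM. Usp51, which acts on histones, had 10.3, 14.6 and 14.9 TPM. All 4 stood lowest in young oocytes as deposited, and their highest aged-sec over aged ratio was 1.22, in Usp34.

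In the leading rows of another set aged-sec lay, as deposited, between young and aged, or just below young. The leading row of Usp37, which opposes ubiquitination of cyclin A, had 18.6 TPM in young oocytes, 31.2 in aged oocytes and 21.2 with secretome. Its aged-sec over aged log2 was -0.54, against -0.18 for the sum of listed Usp37 rows. The other Usp37 rows did not fall: from aged to aged-sec, NM_001310662 went from 19.7 to 20.0 TPM and XM_030254923 from 4.87 to 8.06 TPM. Usp3, a histone deubiquitinase, had 15.2, 24.3 and 18.0 TPM, and Usp1, which acts on the DNA repair proteins PCNA and FANCD2, had 11.8, 20.1 and 15.7 TPM. Usp53 had 20.4, 25.1 and 19.8 TPM, with aged-sec just below young. None of these leading rows differed 2-fold between libraries.

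The remaining 20 Usp genes stayed under 10 TPM in all libraries and could not meet the size rule. Among them is Usp19, a deubiquitinase with a form anchored in the endoplasmic reticulum. Its leading row had 1.13 TPM in young oocytes, 6.21 in aged oocytes and 1.17 with secretome, so the aged library alone was high. The other listed Usp19 row, the higher one in young oocytes, had 2.28, 3.45 and 1.11 TPM. Their sums were 3.41, 9.66 and 2.28 TPM. Usp47, linked to base excision repair, had the shape of the Usp19 leading row at 2.93, 7.17 and 2.90 TPM, and Usp38 had 5.27, 8.04 and 4.17 TPM. Both Usp19 and Usp47 would be lower in aged-sec than aged under a minimum of 1 TPM, with log2 ratios of -2.01 and -1.17.

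In the opposite direction Usp33 had 3.93, 4.99 and 7.76 TPM and Usp11 had 1.55, 1.94 and 3.18 TPM, with aged-sec highest. The splicing gene Usp39 had 1.33, 4.69 and 2.83 TPM. Usp48, Usp32, Usp13, Usp4, Usp30, a mitochondrial deubiquitinase, and Usp24 had means from 1.99 to 4.93 TPM and log2 aged-sec over aged from -0.36 to -0.06. Usp27x, Usp54, Usp8, the endosomal deubiquitinase, Usp42, Usp12, Uspl1, Usp16 and Usp6nl had means from 0.103 to 1.06 TPM, where a difference of a few hundredths of a TPM can change a ratio.

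Otud genes encode deubiquitinases of the ovarian tumour fold. Otud4 was the only member to meet the size rule between aged-sec and aged oocytes, with 3.48 TPM in young oocytes, 6.26 in aged oocytes and 13.0 with secretome. The ratio was 2.08 as deposited and 1.00 on the log2 scale with 0.5 TPM added, on the limit of the rule; with 1 TPM added it no longer met it. Both scalings add to every log2 value of this pair (0.36 and 0.29), so they could not undo this call. Nor could the use of curated rows only, because the 1 listed row of Otud4 is curated. Otud6b, linked to translation, had 13.4, 19.3 and 17.8 TPM, Otud5 had 2.10, 2.60 and 1.20 TPM, and Otud3 was under 0.5 TPM. Otud4 in aged-sec oocytes thus stood at 3.75 times young, while the other 3 Otud genes were highest in aged oocytes as deposited.

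Of the other genes whose symbols begin with Uba, Ubash3b, a phosphatase that binds ubiquitin, had 13.5, 16.5 and 12.2 TPM and Ubap2 had 4.88, 9.36 and 6.60 TPM. Ubac2, of the endoplasmic reticulum, had 4.41, 5.96 and 3.09 TPM. Ubap1l, Ubap2l, a stress granule protein, and Ubap1 had means of 4.48, 1.65 and 1.12 TPM. Aged-sec was below young in Ubash3b, Ubac2 and Ubap2l, but for Ubap2l the sum of its 5 listed rows went the other way, from 2.47 TPM in young to 4.73 TPM in aged-sec oocytes (log2 0.82).

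Many of the genes have several transcript variants, and the results differed among them. RefSeq annotates several mRNAs for 54 of the 60 genes, and 25 had more than 1 listed row, up to 5. Usp46 had 2: besides the leading row, XM_006504269 had 54.4 TPM in young oocytes, 75.7 in aged oocytes and 68.9 with secretome, which was 1.39 times from young to aged. The leading row held 35.1% of the listed Usp46 TPM in young oocytes, 56.9% in aged oocytes and 51.8% with secretome, so it was the lower row in young and the higher in the others. Uba1 showed the same change, its leading row holding 42.9%, 66.3% and 57.8% while NM_009457 had 10.6, 13.1 and 9.88 TPM. In Usp45 the leading row held 45.0%, 65.0% and 77.4%. Among genes whose 2 highest rows both reached 5 TPM in a library, Usp28 had the largest contrast: 1.22-fold from young to aged in its leading row and 5.80-fold in XM_006510264, which had 1.17, 6.79 and 6.14 TPM.

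The highest row was not the same in all libraries in 6 of the 25 genes, among them 3 of the 4 that met the size rule for age. This overlap is partly built in, because the leading row was chosen by its mean over all libraries. A leading row that is the lower one in young must be the higher one in aged or aged-sec. How the reads were divided among overlapping variants is not stated in the labels, and its part in these shares was not tested. Summed over listed rows, Usp46 had 83.7, 176 and 143 TPM (log2 aged over young 1.06), Uba1 18.6, 38.9 and 23.4 TPM (1.05) and Usp45 8.06, 21.3 and 15.7 TPM (1.35), so all 3 still met the rule for age. Against young, the sums in aged-sec oocytes gave log2 0.77 for Usp46 and 0.92 for Usp45, which no longer met it, and 1.10 for Usp34, which did. Ube2w, with 5 rows summing to 49.3, 97.9 and 99.8 TPM, came to 0.98 and did not. Usp34 and Ubap2l met it on their sums, at 1.02 and 1.83, and Ubap2l also on the lower side in aged-sec against aged, at -1.01. Rows outside the table are missing from these sums.

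**Figure D4:**
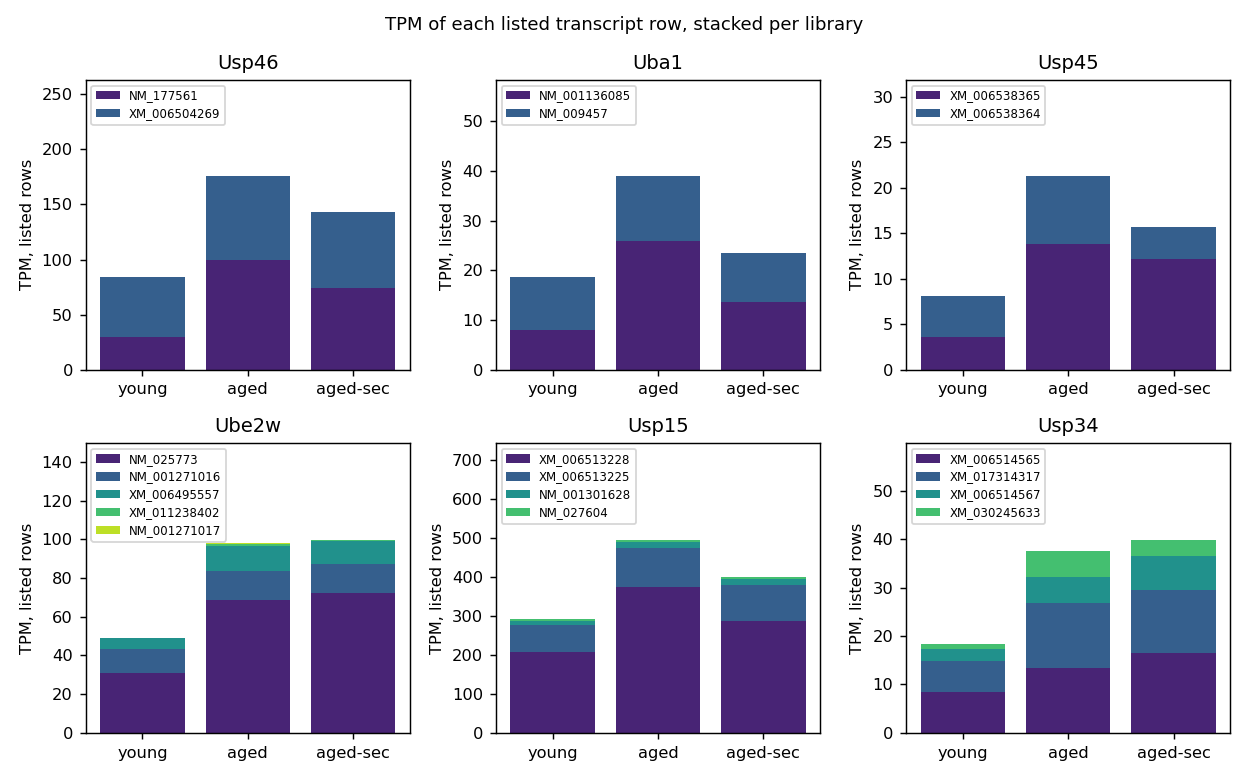
TPM of each listed transcript row of 6 genes, stacked per library (bars from 0; 1 library per group). The leading row, at the bottom, widens its share from young to aged in Usp46 (35.1% to 56.9%), Uba1 and Usp45, while in Usp15 it holds 71.6% in young and 75.8% in aged.

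The rest of the pathway was described by a list of 79 further genes, of which 37 were in the table. Of the 16 with enough TPM 3 met the rule between aged and young oocytes, all deubiquitinases of other families, a share near the 18.2% of all rows and 15.9% of leading rows. Brcc3, which cuts lysine-linked signalling chains, had 7.92 TPM in young oocytes, 105 in aged oocytes and 60.7 with secretome. Atxn3 had 6.44, 19.9 and 17.9 TPM and Mindy1 had 4.38, 11.5 and 10.2 TPM. All 3 were also over the limit between aged-sec and young. All 3 were under 10 TPM in young oocytes, so they had enough TPM only through the libraries where they were high.

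Between aged-sec and aged oocytes 1 of 17 met the rule, on the lower side, where 2.18% of leading rows did so. It was Uchl3, a hydrolase of short ubiquitin adducts, with 9.57, 16.7 and 7.52 TPM. Uchl3 reached 10 TPM only in the aged library. Uchl5, which like Usp14 binds the proteasome, had 24.6, 29.7 and 19.2 TPM, so these proteasome-bound deubiquitinases stood on opposite sides of aged. The median log2 ratios of the 37 were 0.48 for aged over young and -0.25 for aged-sec over aged, beside 0.56 and -0.24 in the 60 genes.

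The most abundant of the list were Nae1, the partner subunit of Uba3, at 330.1, 402 and 399 TPM, Ubl5, a ubiquitin-like protein of splicing, at 213, 274 and 297 TPM, and Ubqln1, a shuttle to the proteasome, at 83.4, 101 and 77.5 TPM. Nae1 stood at 7.78 times the young level of Uba3 in TPM, which are per length. In the NEDD8 branch Senp8, the NEDD8 protease, had 6.89, 9.57 and 14.2 TPM, highest in aged-sec (log2 0.55 over aged). Log2 aged-sec over aged was 0.04 in the leading row of Ube2f, -0.01 in that of Nae1 and -0.41 in that of Uba3. Other rows differed from these: from aged to aged-sec the other Uba3 row went from 15.1 to 15.9 TPM. The other Ube2f row went from 3.76 to 2.43 TPM. Whether the branch moved together was not tested. Of SUMO proteases Senp6 had 32.8, 40.6 and 43.5 TPM and Senp1 11.03, 22.1 and 17.6 TPM.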

How the data were processed

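RNA of 3 libraries, each of 20 pooled oocytes, was made into SMART-Seq2 cDNA and sequenced on DNBSEQ, per the labels' protocols and design text. Which aligner, quantifier and genome build were used is not given in the sources used here. The authors deposited TPM per RefSeq transcript, with a ratio column for each pair of neighbouring groups, per the file headers; recomputed from TPM, the ratios differed by a relative 6.6e-07 at most. Listed rows hold 229243 (young), 324814 (aged) and 321460 (aged-sec) of the 1000000 TPM of a library, and 0 values are zero. Depth is unknown, which leaves out counting intervals, and the single library of each group limits precision.

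Genes were taken by symbol, with 1 leading row each. Log2 ratios have 0.5 TPM added. The size rule was checked on simulated data, made from the young values with known fold changes and no noise. That checks its arithmetic only, and cannot show how often single libraries of the same kind would meet the rule. Background shares use all rows or the leading row of each symbol, where they reach 10 TPM in either library compared. Genes named were, per role, the 3 most abundant, those that met the size rule, the 2 furthest in each direction of aged-sec over aged at 10 TPM or more, and 3 with unlike variant rows; all others were named after their values were seen. The values of 1 Ube2 gene are not reported here, though group counts and sums include it. Members and lists were chosen with earlier results of these data known. Coding windows were found with Python 3.11.15 by translating GENCODE M21 coding sequences. The RefSeq table (GRCm38.p6) gave annotated genes and mRNAs, and all 60 symbols matched it. Alternatives were other pseudocounts, minimums, row choices and scalings.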

Additional observations from a re-analysis of the deposited data

How the results depend on the processing

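No paired analysis was possible because each group has 1 library, and no library could be left out. Of 58 values recomputed under the alternatives 41 kept their direction and stayed within 1.5 times (counts) or 0.1 (medians). With 0.1 TPM added the median log2 aged over young was 0.66. With 1 TPM added 0 genes met the size rule on the higher side in aged-sec over aged. With at least 1 TPM, or no minimum, 8 genes met it in aged over young and 3 on the lower side in aged-sec over aged. Summing the listed rows gave 1 on that side. With equal medians the age count was 0 and the count of aged-sec higher than young was 2; the medians turned, to -0.19 for aged over young, 0.09 for aged-sec over aged and -0.12 for aged-sec over young. With median-of-ratios scaling these values were 1, 2, -0.04, 0.02 and -0.06. Both scalings use listed rows only, which were selected for being higher in aged, and subtract 0.95 and 0.79 from each log2 aged over young value by construction.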
